A study of Homo sapiens with 38 samples.

Results

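The 10 genes of plasma membrane amino acid transport described here were followed through every RNA-seq library of the series: SLC7A1, SLC7A3, SLC7A5, SLC7A6, SLC7A11, SLC3A2, SLC1A4, SLC1A5, SLC38A1 and SLC38A2. These are 10 of the 49070 genes listed in both kinds of count file. They were chosen by a measured response: SLC7A3 and SLC7A11 were among the strongest falls with palbociclib in CHLA15 and CHLA20 cells. The others are further genes of amino acid transport. The palbociclib values of those 2 lines are therefore given as a description with no test, and only the other experiments were tested. Earlier results of these data were known when the members were chosen, so those tests may not be independent of the choice.

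Amino acid uptake depends on carriers of different chemistry. SLC7A1 and SLC7A3 (the cationic transporters CAT-1 and CAT-3) bring in arginine and lysine. SLC7A5 (LAT1), SLC7A6 (y+LAT2) and SLC7A11 (xCT) are light chains that reach the membrane only when bound to the heavy chain SLC3A2 (CD98hc), and they exchange leucine and other large neutral residues, cationic against neutral residues, and cystine against glutamate. SLC1A4 (ASCT1) and SLC1A5 (ASCT2) exchange small neutral residues and glutamine, while SLC38A1 (SNAT1) and SLC38A2 (SNAT2) carry them in with sodium. Several of these genes are textbook targets of ATF4, the transcription factor that is translated when amino acids are short or eIF2α is phosphorylated, and SLC7A11 is also a target of NRF2 (NFE2L2). In MYCN-driven neuroblastoma, glutamine and cystine uptake are well-known dependencies.

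All samples were labelled as established human neuroblastoma lines. BE2C cells were transfected for 72 h with a control siRNA (siCtrl, 2 libraries) or 1 of 3 siRNAs against the H3K27 demethylase KDM6B (N1, N2 and N33, 1 library each), or received GSK-J4, a small molecule that blocks KDM6 enzymes, at 2.5 µM for 0, 24 or 48 h (2 libraries per time). CHLA15 and CHLA20 cells received palbociclib, an inhibitor of CDK4 and CDK6, at 300 nM (0.3 µM), and NB1643 and NB1691 cells at 3 µM, for 72 h, each beside untreated cells (2 libraries per line and condition, 27 libraries in all). Each BE2C library is the sum of 2 deposited files, a pairing inferred from titles and counts. The GSK-J4 course has no untreated cells at 24 or 48 h, so time in culture and drug cannot be told apart. According to the labels BE2C cells grew in RPMI and the other lines in DMEM with added L-glutamine, whereas the study's methods name RPMI for BE2C, CHLA15, CHLA20 and NB1691. If the labels hold, the medium cannot be told apart from the line, and dose cannot be told apart from the pair of lines.

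Libraries held 36186567 to 93011010 counts on genes, and 3 counts corresponded to at most 0.0829 CPM (the count of a gene scaled to a common library size). Nothing in the labels says whether libraries of a group came from separate cultures, so the p-values measure the spread between these libraries, which may be technical. The 2 untreated libraries labelled NB1691 stood apart from the other lines. The summed level of 9 adrenergic neuroblastoma genes was 593 to 665 CPM there, against 2581 to 4001 CPM in control libraries of the other lines, with TH at 0.72 CPM. FN1 reached 61800 CPM, COL1A1 14700 CPM, and MYCN 86.3 CPM against 3175 CPM in NB1643. The identity of these libraries is therefore in doubt and was not tested. Of 4 markers of other cell types, PTPRC and ALB were below 1 CPM in the untreated libraries of every line and PECAM1 reached 3.66 CPM in NB1691. The sum of the 4 was 94.2 to 106 CPM in untreated CHLA15 and CHLA20 libraries, nearly all of it COL1A1, and below 1 CPM in those of BE2C and NB1643. KDM6B RNA itself was 1.18, 0.934 and 1.08 times the siCtrl mean in the libraries labelled siKDM6B N1, N2 and N33, so a lower level of the target was not seen in these RNA libraries.

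Promoter sequence is shown because 9 of the 10 members moved in the same direction with GSK-J4. The C/EBP-ATF response element (CARE), which ATF4 binds with a C/EBP partner, was searched as TGATGNAAN on both strands of windows reaching from 250 bases before to 50 bases after each RefSeq transcription start (GRCh38.p14). Entries existed for 8 of the 10 members, with 14 windows; those of SLC7A3 and SLC7A11 were not in the table. The CARE letters were found in 5 of the 14 windows, belonging to 5 of the 8 genes, against 3.61% of all 35116 windows and 4.45% of all 27305 genes. The lines give each match in the direction of the gene, 5′ to 3′, with the CARE or its reverse complement in capitals.
SLC1A4: gcggctcccgTTTGCATCAtctccagccg
SLC7A1: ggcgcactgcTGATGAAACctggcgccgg
SLC3A2: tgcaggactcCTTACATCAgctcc
SLC38A1: cagacccgaaTGATGAAAAgggatcagct
SLC1A5: aggaagtggcTGATGCAAGctgtccaggg
By exact match of the window to GRCh37, the build of the count files, the SLC1A4 stretch lies at chr2:65216515-65216543 and the SLC7A1 stretch at chr13:30169800-30169828, both in a UTR exon of the canonical transcript. The SLC3A2 stretch (chr11:62649197-62649220), the SLC38A1 stretch (chr12:46660285-46660313) and the SLC1A5 stretch (chr19:47288150-47288178) lie at alternative starts inside the gene, in a coding exon, an intron and a UTR of other transcripts respectively. SLC7A5, SLC7A6 and SLC38A2 held no such letters in their window. The E-box CACGTG, bound by MYC and MYCN, is shown for the members that held it, 2 of the 8 genes against 8.77% of all genes.
SLC7A5: ccggacgacgCACGTGctccgagctg
SLC1A5: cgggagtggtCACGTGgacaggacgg
The first lies upstream of the gene at chr16:87903228-87903253 (GRCh37). The second, at chr19:47290585-47290610, lies at an alternative start inside the gene, in a UTR of another transcript. The motif begins at -130 and -50 relative to the transcription start of the window. The antioxidant response element core TGACNNNGC was found at 5 of the 8 genes, against 16.1% of all genes. A match describes letters and not an occupied site.

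In untreated cells SLC3A2, SLC38A1, SLC38A2, SLC1A5 and SLC7A5 held the 5 highest ranks and SLC7A3 the lowest in every line. Levels were compared between genes as CPM per kilobase of the exons of the canonical transcript. In BE2C cells at 0 h SLC3A2 had 104 ± 0.825 and SLC38A1 99.2 ± 1.91 CPM per kilobase (SD, n = 2), followed by SLC38A2 at 66.4 ± 2.52, SLC7A5 at 64.3 ± 1.15 and SLC1A5 at 61.8 ± 1.35. The ranges of SLC38A2 and SLC7A5 overlapped. SLC7A6 (28.6 ± 0.577) and SLC7A1 (23.0 ± 0.231) were intermediate. SLC1A4 (1.91 ± 0.168), SLC7A11 (1.45 ± 0.154) and SLC7A3 (0.125 ± 0.107) were low. The same 3 genes stood at the bottom in the siCtrl libraries. In CHLA15 and CHLA20 cells SLC1A4 was at 15.6 ± 0.922 and 22.9 ± 0.201 CPM per kilobase and SLC7A11 at 4.44 ± 0.0762 and 6.29 ± 1.61. SLC7A11 was at 0.669 ± 0.0182 in NB1643 and 4.81 ± 0.0286 in NB1691 cells. In NB1691 cells SLC38A2 (129 ± 1.19) and SLC1A5 (105 ± 0.393) led the order. In NB1643 cells SLC38A1, SLC38A2, SLC3A2 and SLC1A5 averaged 48.3, 47.7, 46.7 and 44.5. There the range of SLC38A2 (44.7 to 50.8) overlapped those of SLC38A1 (47.3 to 49.3), SLC3A2 (46.5 to 47.0) and SLC1A5 (42.6 to 46.4). The ranges of SLC38A1, SLC3A2 and SLC1A5 lay apart from each other.

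**Figure D1:**
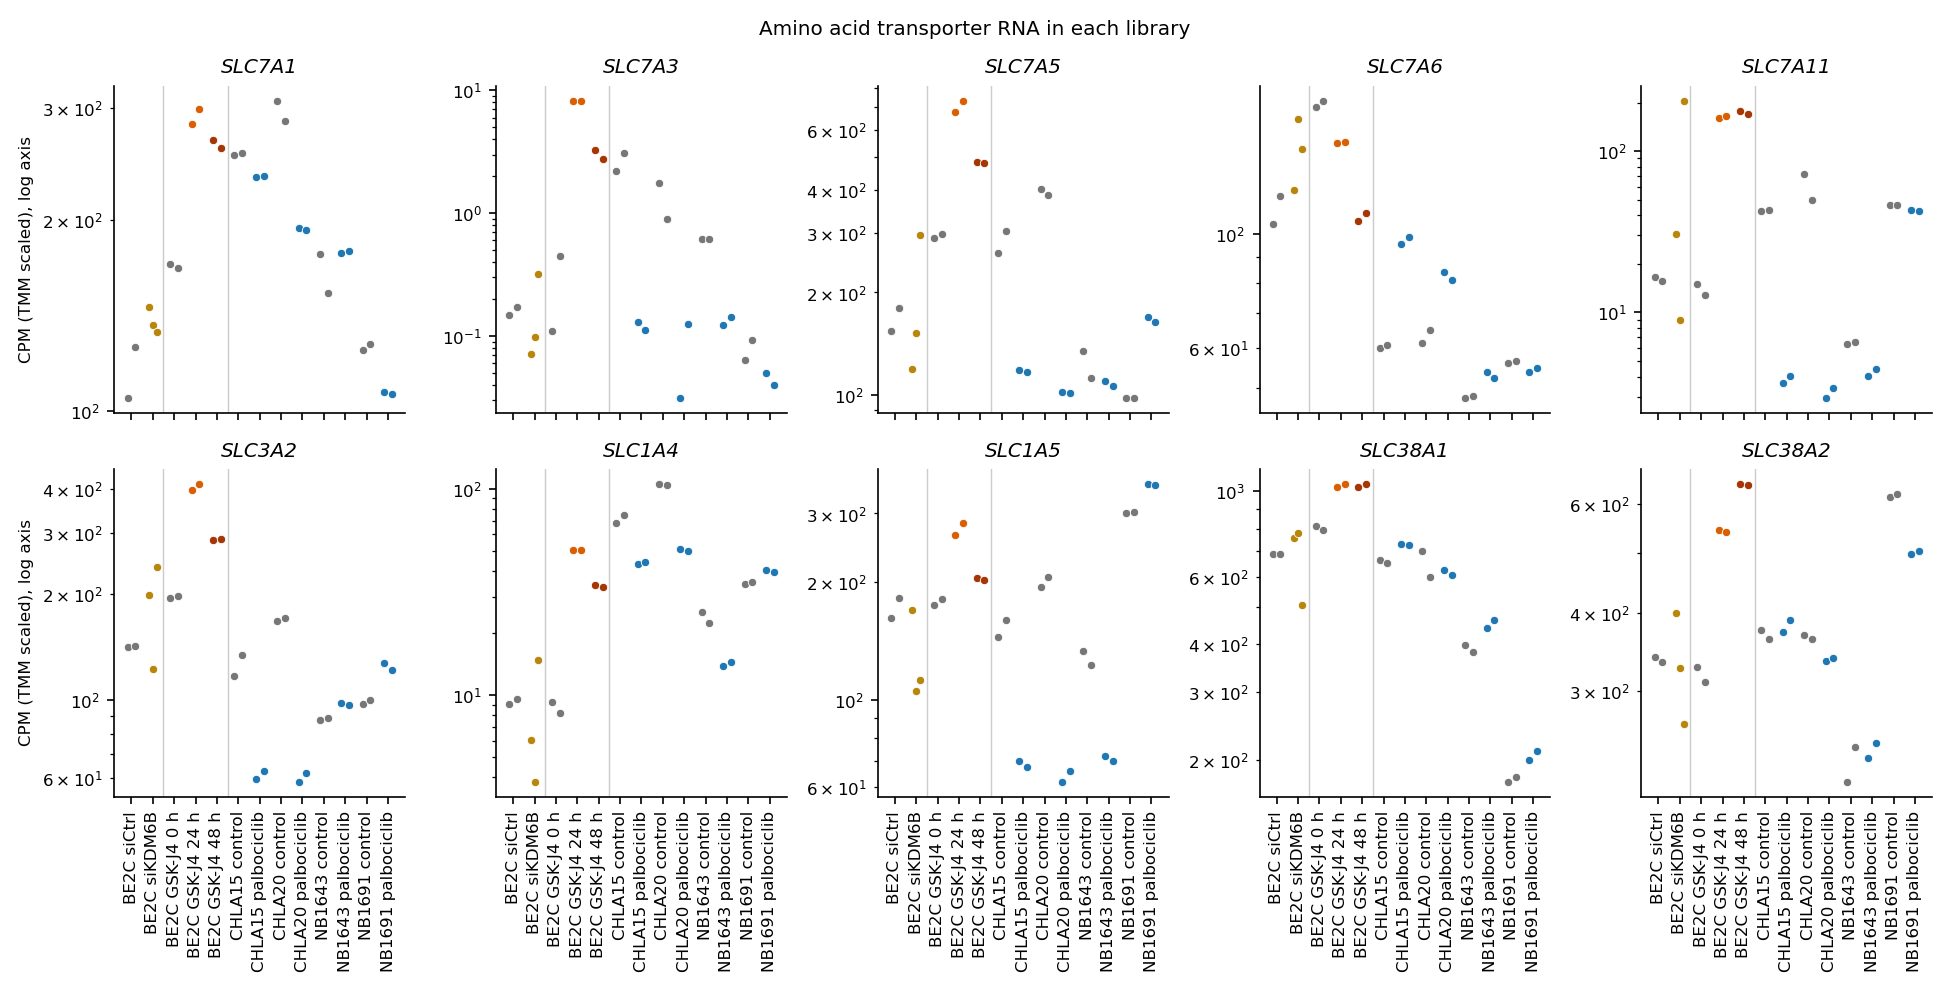
CPM of each transporter on a log axis in every library, by group (grey, control; ochre, siKDM6B; orange and brown, GSK-J4; blue, palbociclib; CPM were scaled within each of the 3 experiments, which grey lines separate). SLC7A11 rises from 12.9 to 15.0 CPM at 0 h to 160 to 178 CPM with GSK-J4, and falls from 42.3 to 71.7 CPM to 2.93 to 4.02 CPM with palbociclib in CHLA15 and CHLA20 cells.

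With GSK-J4, RNA of 9 of the 10 transporters rose at 24 h and stayed above the 0 h level at 48 h, and SLC7A6 alone fell at both times. All 10 passed the test at both times (edgeR quasi-likelihood test, Benjamini-Hochberg over 17734 genes). The background was 27.3% of all tested genes higher and 28.0% lower at 24 h, and 37.1% higher and 34.4% lower at 48 h. The median log2 fold change of the members was 0.91 at 24 h and 0.68 at 48 h, against 0.01 and 0.05 over all tested genes. Both times are compared with the same 0 h libraries.

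Of the cationic carriers, SLC7A3 (chrX:70145429-70150975) went from near the detection floor to a readily counted level. Its 0 h libraries held 4 and 16 counts (0.110 and 0.450 CPM), the 24 h libraries 387 and 385 counts (8.16 and 8.19 CPM) and the 48 h libraries 210 and 136 counts (3.24 and 2.75 CPM). Every treated library was above both 0 h libraries, which themselves differed. Relative to 0 h the log2 rise was 4.86 ± 0.22 (SE) at 24 h (adjusted p = 1.67e-23) and 3.43 ± 0.27 at 48 h (adjusted p = 1.3e-15). Its size rested on the 0 h libraries: it was 4.18 at 24 h and 2.73 at 48 h without the first 0 h library, and 6.18 and 4.74 without the second. SLC7A1 (chr13:30083551-30169825), the widely expressed arginine importer, moved less. It had 170 and 168 CPM at 0 h, 283 and 299 CPM at 24 h, and 267 and 259 CPM at 48 h, a 1.72-fold and a 1.56-fold rise (adjusted p = 6.35e-26 and 3.67e-23).

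The light chains diverged. SLC7A11 (chr4:139085251-139163503), which imports the cystine used for glutathione, had 15.0 and 12.9 CPM at 0 h, 160 and 165 CPM at 24 h, and 178 and 170 CPM at 48 h. That is an 11.6-fold rise at 24 h (log2 fold change 3.54 ± 0.05 SE, adjusted p = 5.4e-44) and a 12.5-fold rise at 48 h (3.64 ± 0.05, adjusted p = 1.5e-45). It ranked 183 from the top of the 17734 tested genes at 24 h. SLC7A5 (chr16:87863629-87903113) rose from 289 and 297 CPM to 678 and 732 CPM at 24 h and stood at 483 and 481 CPM at 48 h. The log2 rise was 1.27 ± 0.03 at 24 h (adjusted p = 1.86e-34) and 0.72 ± 0.03 at 48 h (adjusted p = 2.48e-25). SLC7A6 (chr16:68298419-68335726) fell from 177 and 182 CPM to 150 and 151 CPM, and to 106 and 110 CPM at 48 h. The log2 fold changes were -0.25 ± 0.03 (adjusted p = 3.12e-09) and -0.73 ± 0.03 (adjusted p = 7.78e-25). The heavy chain SLC3A2 (chr11:62623476-62656352) had 196 and 198 CPM at 0 h, 396 and 412 CPM at 24 h, and 286 and 289 CPM at 48 h. It thus rose 2.06-fold and then 1.46-fold over the 0 h level (adjusted p = 1.25e-31 and 2.6e-21).

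Among the carriers of neutral amino acids, SLC1A4 (chr2:65215611-65250999) changed most. It had 9.27 and 8.19 CPM at 0 h, 50.5 and 50.4 CPM at 24 h, and 34.1 and 33.5 CPM at 48 h, a 5.77-fold and a 3.87-fold rise (adjusted p = 3.63e-34 and 1.24e-29). The glutamine exchanger SLC1A5 (chr19:47278140-47291851) had 176 and 181 CPM at 0 h, 265 and 284 CPM at 24 h, and 206 and 203 CPM at 48 h. The log2 rise of 0.62 ± 0.03 at 24 h had shrunk to 0.20 ± 0.03 at 48 h (adjusted p = 1.09e-21 and 4.76e-07). SLC38A2 (chr12:46751971-46766556), which is induced by amino acid shortage in many cell types, rose from 327 and 310 CPM to 544 and 540 CPM at 24 h and to 645 and 643 CPM at 48 h. The log2 rise was 0.77 ± 0.03 at the earlier and 1.01 ± 0.03 at the later time (adjusted p = 6.02e-27 and 2.53e-32). SLC38A1 (chr12:46576846-46663800) rose from 814 and 792 CPM to 1029 and 1044 CPM at 24 h, and to 1030 and 1044 CPM at 48 h, a 1.29-fold rise at both times (adjusted p = 2.35e-16 and 6.47e-17).

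Between 24 h and 48 h, 7 of the 10 members declined, 2 rose and SLC38A1 did not pass the test (adjusted p = 0.963, 95% interval of the log2 fold change -0.05 to 0.05). The background was 28.0% of genes lower and 25.9% higher. SLC7A3 fell by 1.43 on the log2 scale, the steepest decline of the members, and SLC1A4 and SLC7A5 by 0.58 and 0.55. The rise of SLC38A2 (0.25 ± 0.03, adjusted p = 1.41e-10) held in every alternative fit. That of SLC7A11 (0.10 ± 0.03, adjusted p = 0.008) did not: its adjusted p was 0.154 without the first 24 h library, 0.263 without the first 48 h library and 0.0938 with DESeq2. Expression of 8 proliferation genes summed to 3268 to 3329 CPM at 0 h, 2435 to 2454 CPM at 24 h and 1786 to 1801 CPM at 48 h, while the summed level of 4 mesenchymal neuroblastoma genes was 199 to 209, 346 to 357 and 502 to 507 CPM (VIM averaged 173, 327 and 464 CPM). Of the 3 mesenchymal genes tested 2 rose and 1 fell at 24 h, and 3 rose at 48 h, relative to 0 h. The 1 that fell was FN1, which averaged 30.3, 24.4 and 40.5 CPM at 0, 24 and 48 h. Of the 9 adrenergic genes 3 rose and 6 fell at 24 h, and 1 rose and 8 fell at 48 h, relative to 0 h. The part of growth and of cell state in the transporter values was not tested. In bulk libraries such as these, fewer cells of a type and less RNA per cell cannot be told apart.

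Genes of the amino acid response moved with the transporters, whereas other carriers did not move in 1 direction. Of 30 genes of the amino acid response (ATF4 and its targets, without the members), 30 rose at 24 h, with a median log2 fold change of 1.58, and at 48 h 29 rose and 1 fell. Over all tested genes 27.3% were called higher and 28.0% lower at 24 h, and 37.1% and 34.4% at 48 h. The gene lists were chosen with earlier results of these data known, so the counts of this paragraph are a description. TRIB3, a pseudokinase induced by ATF4, went from 7.05 to 94.2 CPM at 24 h (log2 fold change 3.74 ± 0.06), and ATF5 from 4.39 to 69.5 CPM (3.98 ± 0.07). NUPR1 was at 0 in both 0 h libraries and averaged 2.17 CPM at 24 h. GDF15 averaged 0.0279 and 6.17 CPM. ATF4 itself rose from 532 to 759 and 826 CPM. Of 32 other amino acid transporters 19 were tested at 24 h, where 7 rose and 6 fell. The glycine carrier SLC6A9 had the largest change among those called with a mean of at least 1 CPM (1.99 to 10.1 CPM, log2 fold change 2.34 ± 0.13), and SLC6A6, the taurine carrier, fell by 0.64. Of 14 genes of glutathione synthesis and NRF2, 13 were tested, of which 3 rose and 4 fell at 24 h. HMOX1, which degrades haem, rose from 1.52 to 5.93 CPM and GCLM, a subunit of glutamate-cysteine ligase, fell by 0.18 on the log2 scale. At 48 h 4 rose and 5 fell: HMOX1 reached 26.3 CPM, and GCLM, with 14.9, 13.1 and 18.6 CPM at 0, 24 and 48 h, was then above its 0 h level (log2 fold change 0.32 ± 0.07, adjusted p = 4.61e-05). NFE2L2 went from 29.0 to 41.0 CPM. Of 20 genes that report amino acids to mTORC1, 19 were tested, of which 6 rose and 7 fell, and SESN2, the leucine sensor, which the amino acid response list also holds, rose from 15.2 to 102 CPM (log2 fold change 2.74 ± 0.05). MYCN fell from 3015 to 1693 and 1450 CPM.

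**Figure D2:**
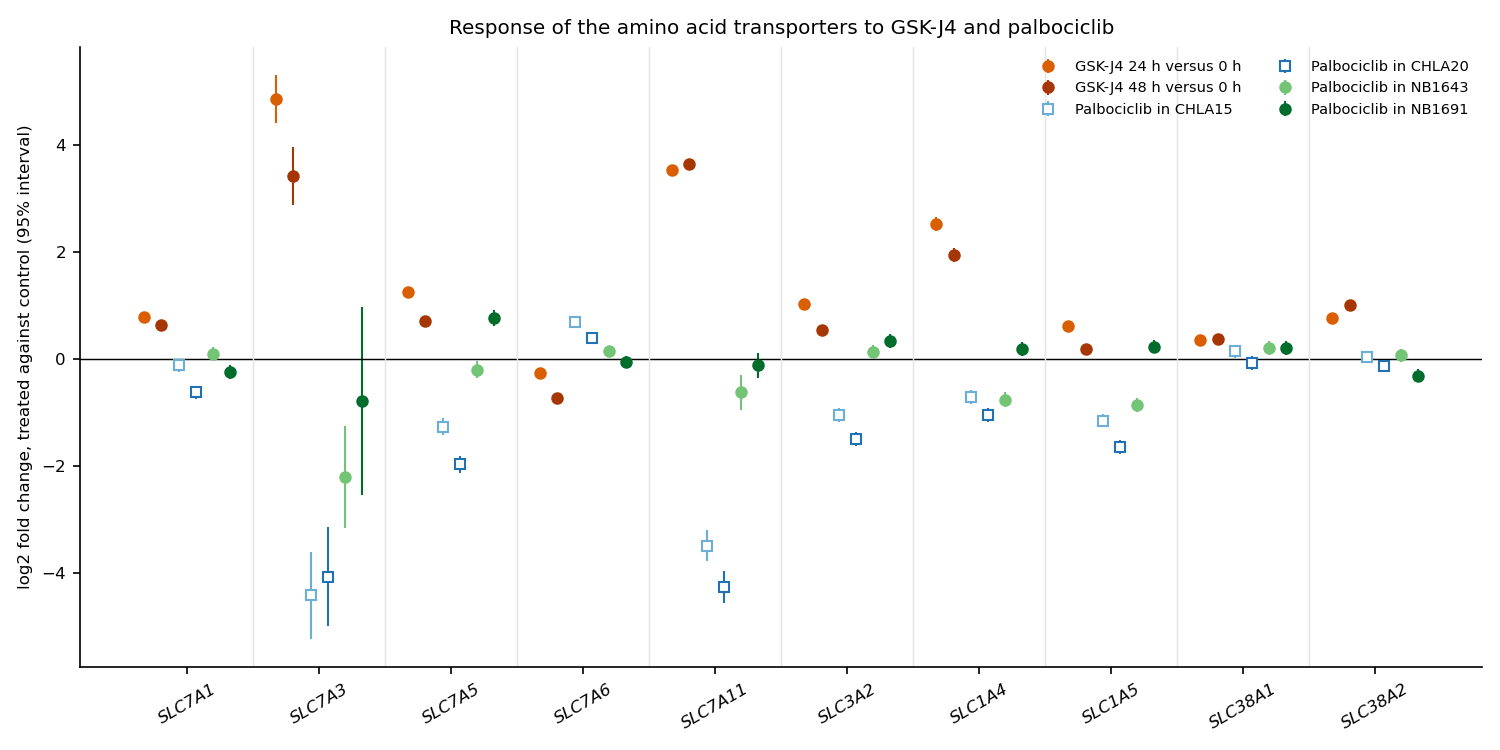
Log2 fold change of each transporter, treated against control, with 95% intervals, for GSK-J4 in BE2C cells and palbociclib in 4 lines (filled circles, tested; open squares, the CHLA lines from which members were chosen, no test). SLC7A3, SLC7A11, SLC1A4, SLC7A5 and SLC3A2 lie above 0 with GSK-J4 and below 0 in the CHLA lines, and SLC7A6 has the opposite signs.

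In CHLA15 and CHLA20 cells, which the choice of members used, palbociclib left most of the transporters lower. SLC7A11 had 42.3 and 43.4 CPM in untreated and 3.63 and 4.02 CPM in treated CHLA15 cells, an 11.2-fold fall, and 71.7 and 49.6 against 2.93 and 3.42 CPM in CHLA20 cells, a 19.1-fold fall. SLC7A3 had 167 and 176 counts in untreated and 8 and 7 counts in treated CHLA15 cells (2.20 and 3.06 against 0.130 and 0.112 CPM). In CHLA20 cells it had 113 and 49 against 2 and 8 counts. Both genes were picked for this fall, so its size supports nothing further. SLC7A5 went from 261 and 303 to 119 and 117 CPM in CHLA15 cells and from 403 and 387 to 102 and 101 CPM in CHLA20 cells. Its heavy chain SLC3A2 went from 117 and 134 to 59.5 and 62.8 CPM and from 168 and 172 to 58.5 and 61.9 CPM. SLC1A5 was 2.22-fold and 3.13-fold lower and SLC1A4 1.63-fold and 2.06-fold lower in CHLA15 and CHLA20 cells. SLC7A6 was higher, at 95.5 and 98.6 against 59.8 and 60.8 CPM in CHLA15 cells and 84.3 and 81.2 against 61.4 and 64.9 CPM in CHLA20 cells. SLC7A1 was 1.08-fold lower in CHLA15 and 1.53-fold lower in CHLA20 cells. The system A carriers hardly moved, with log2 fold changes of 0.15 and -0.07 for SLC38A1 and 0.04 and -0.12 for SLC38A2. The median over the members was -0.87 and -1.27, against -0.00209 and 0 over all 22133 genes tested. The 30 genes of the amino acid response had medians of -0.81 and -1.24, with 29 and 28 of 30 below 0. ATF4 averaged 473 and 308 CPM in untreated and treated CHLA15 cells and 569 and 298 CPM in CHLA20 cells. For the 27 other amino acid transporters tested the medians were -0.15 and -0.01. Of the 14 glutathione and NRF2 genes 7 and 12 were below 0, with medians of -0.03 and -0.23. The proliferation sum was 2773 to 2829 CPM in untreated and 2062 to 2210 CPM in treated CHLA15 cells, and 2917 to 3061 and 1975 to 2000 CPM in CHLA20 cells. The sum of the 4 markers of other cell types, led by COL1A1, went from 94.2 to 99.2 CPM to 30.6 to 35.6 CPM in CHLA15 and from 97.5 to 106 CPM to 42.2 to 43.2 CPM in CHLA20 cells. The part of these in the transporter values was not tested.

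In NB1643 cells, at 3 µM palbociclib, 5 of the 10 members fell, 2 rose and 3 did not pass the test. The background was 19.7% of genes lower and 20.3% higher. The stated choice names the CHLA lines and not NB1643, but earlier results of these data were known. The neutral exchangers fell most reliably. SLC1A5 had 134 and 123 CPM in untreated and 72.0 and 69.8 CPM in treated cells (1.81-fold lower, adjusted p = 1.51e-09), and SLC1A4 25.4 and 22.3 against 13.9 and 14.4 CPM (1.69-fold lower, adjusted p = 4.58e-08). SLC7A3 had 45 and 32 counts in untreated and 8 and 7 counts in treated cells, with a log2 fold change of -2.20 ± 0.46 (adjusted p = 0.000698). SLC7A11 had 6.33 and 6.58 CPM against 4.02 and 4.43 CPM, 1.53-fold lower (adjusted p = 0.00342, and 0.0509 without the first treated library). SLC7A5 had 135 and 112 CPM against 110 and 106 CPM (adjusted p = 0.0436). This call was lost in 7 alternative fits, the fit of NB1643 alone among them (adjusted p = 0.135). SLC38A1 had 399 and 383 CPM against 441 and 464 CPM (log2 fold change 0.21 ± 0.06, adjusted p = 0.00966), and its adjusted p was 0.0854 without the second untreated and 0.0886 without the second treated library. SLC7A6 had 47.8 and 48.2 CPM against 53.7 and 52.4 CPM (adjusted p = 0.0306). This call was lost in 8 alternative fits, among them all 4 that left out a library (adjusted p of 0.0629 to 0.158), the replicate block (0.0522) and NB1643 alone (0.126). SLC3A2, at 87.6 and 88.6 against 97.8 and 96.9 CPM, gained a call with DESeq2 (adjusted p = 0.0275). It also gained one in edgeR with the block (0.0475), with upper quartile scaling (0.0112) and with at least 10 counts in every library (0.0475). SLC7A1, SLC3A2 and SLC38A2 had adjusted p of 0.162, 0.0667 and 0.351. The 95% intervals of their log2 fold changes were -0.02 to 0.23, 0.02 to 0.27 and -0.05 to 0.19. SLC7A1 gained a call as higher with upper quartile scaling (log2 fold change 0.164, edgeR adjusted p = 0.0322). On the log2 scale SLC7A1 and SLC38A2 were at 0.217 and -0.0155 without the first untreated library, and at -0.0141 and 0.143 without the second. Without the first or without the second treated library 4 members passed the test. Of the 30 amino acid response genes 5 rose and 13 fell: the serine pathway enzymes SHMT2 (252 to 134 CPM) and PHGDH (313 to 184 CPM) fell, and ATF5 (6.68 to 13.2 CPM) and DDIT4 (25.2 to 46.9 CPM) rose. Of the 14 glutathione and NRF2 genes 8 fell and 0 rose, with a median log2 fold change of -0.27. The proliferation sum went from 1424 to 1462 CPM to 139 to 141 CPM.

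In the libraries labelled NB1691, 5 members rose, 2 fell and 3 did not pass the test, against 17.4% of genes higher and 15.5% lower. SLC7A5 had 97.7 and 97.7 CPM in untreated and 170 and 164 CPM in treated cells, 1.71-fold higher (adjusted p = 1.92e-07). SLC3A2 rose with it, from 97.4 and 100.1 CPM to 128 and 122 CPM (1.26-fold, adjusted p = 0.00024). SLC38A2 fell from 614 and 622 CPM to 498 and 504 CPM (1.23-fold lower, adjusted p = 0.000302) and SLC7A1 from 125 and 127 CPM to 107 and 106 CPM (1.18-fold lower, adjusted p = 0.00376). SLC1A5 (1.18-fold), SLC38A1 (1.15-fold) and SLC1A4 (1.14-fold) also rose, but with library totals in place of TMM scaling their adjusted p was 0.0556, 0.173 and 0.251. The call of SLC1A4 (adjusted p = 0.0251) was also lost in all 4 fits that left out a library (0.077 to 0.142) and without a filter (0.0517), and that of SLC38A1 without the first untreated (0.107) or the second treated library (0.13). SLC7A11 had 46.2 and 46.6 CPM in untreated and 43.2 and 42.4 CPM in treated cells (adjusted p = 0.46, 95% interval -0.34 to 0.11), and was called lower when NB1691 was fitted alone (log2 fold change -0.13, adjusted p = 0.00864). SLC7A6 also missed the threshold (adjusted p = 0.456). SLC7A3 held 4 and 7 counts in untreated and 3 and 2 counts in treated cells (adjusted p = 0.521), at or near the floor in both groups. Of the 30 amino acid response genes 14 rose and 3 fell, with STC2 going from 350 to 807 CPM and VLDLR from 35.3 to 72.3 CPM. Of the 14 glutathione and NRF2 genes 1 rose and 6 fell. The proliferation sum went from 1147 to 1176 CPM to 145 to 160 CPM.

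The response to palbociclib differed between NB1643 and NB1691 cells for 5 of the 10 members, by a test of the difference itself. SLC1A5 (log2 difference -1.09 ± 0.08, adjusted p = 3.39e-08), SLC7A5 (-0.97 ± 0.11, adjusted p = 2.36e-06) and SLC1A4 (-0.94 ± 0.09, adjusted p = 5.8e-07) had a lower fold change in NB1643 than in NB1691. SLC38A2 (0.38 ± 0.08, adjusted p = 0.0019) and SLC7A1 (0.35 ± 0.08, adjusted p = 0.00504) had a higher one. Over all genes 12.0% were called lower and 10.0% higher. SLC7A3, SLC7A6, SLC7A11, SLC3A2 and SLC38A1 did not pass this test, with 95% intervals of -3.65 to 0.81, 0.05 to 0.35, -0.90 to -0.10, -0.37 to -0.01 and -0.18 to 0.19. The call of SLC7A6 depended on the fit: its adjusted p was 0.0564, and under 0.05 in 6 alternatives. That of SLC7A11 was 0.0671, and under 0.05 in 4.

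**Figure D3:**
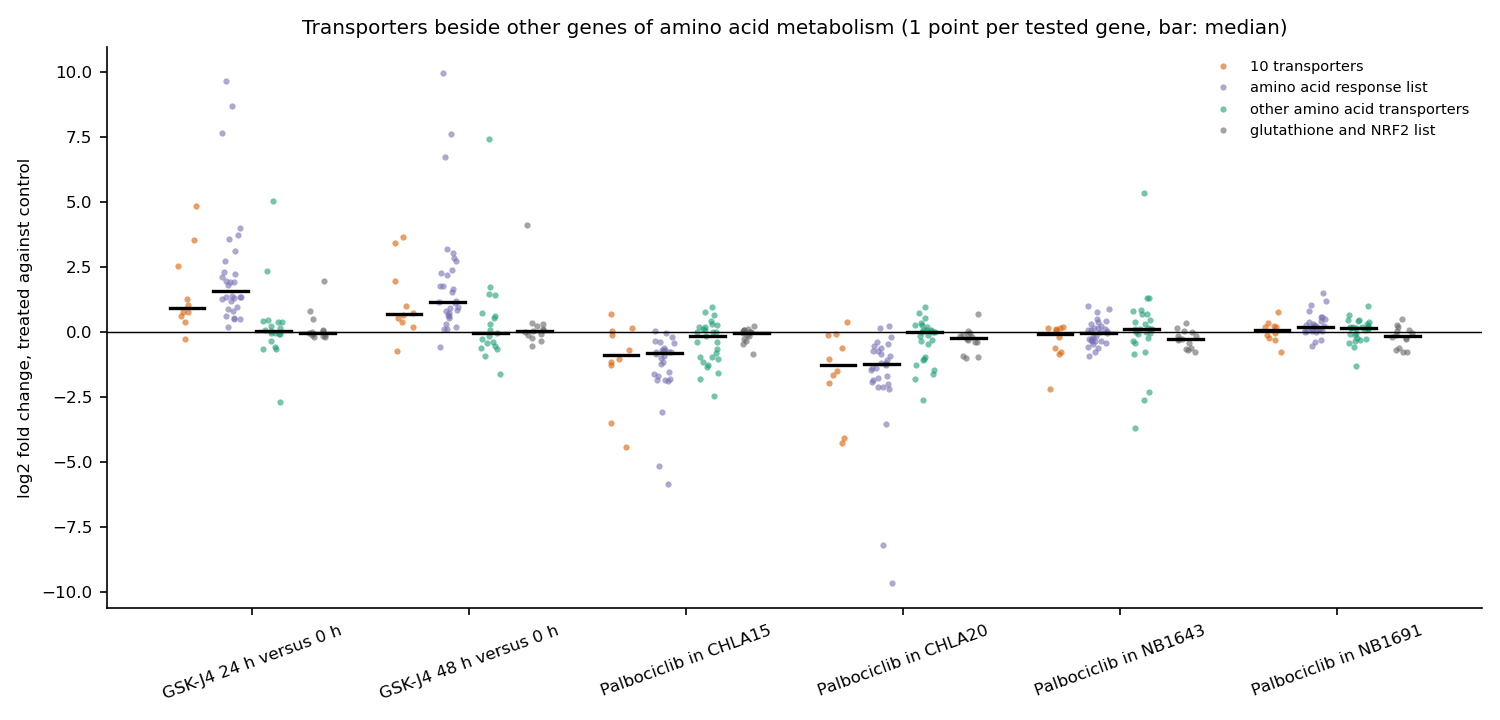
Log2 fold change of every tested gene of 4 lists, treated against control, with bars at the medians. The 10 transporters (medians 0.91 and 0.68 with GSK-J4, -0.87 and -1.27 in CHLA15 and CHLA20) lie beside the amino acid response list (1.58, 1.16, -0.81 and -1.24), while the medians of the glutathione list range down to -0.23 in CHLA20 and -0.27 in NB1643; points of genes with no counts in a group depend on the fit.

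The RNA ratios of the light chains to the heavy chain changed, and SLC3A2, the denominator, changed as well. At 24 h of GSK-J4 SLC3A2 RNA was 2.06-fold higher and SLC7A6 RNA 1.19-fold lower than at 0 h. With palbociclib SLC3A2 RNA was 2.06-fold lower in CHLA15 and 2.82-fold lower in CHLA20 cells. Expressed per kilobase, SLC7A5 RNA amounted to 0.617 ± 0.00636 of SLC3A2 RNA at 0 h and 0.721 ± 0.0198 at 24 h of GSK-J4 (SD, n = 2). SLC7A6 went from 0.275 ± 0.00354 to 0.112 ± 0.00283 of SLC3A2, and SLC7A11 from 0.0138 ± 0.00163 to 0.0785 ± 0.000424 at 24 h and 0.118 ± 0.00495 at 48 h. At 0 h SLC7A6 RNA was thus far above SLC7A11 RNA, and at 48 h they were close, with ratios of 0.112 and 0.115 for SLC7A6 and 0.115 and 0.122 for SLC7A11. In CHLA15 and CHLA20 cells with palbociclib the ratios moved the other way, as a description: SLC7A6 from 0.145 to 0.478 and from 0.112 to 0.415, and SLC7A11 from 0.0668 to 0.0122 and from 0.0699 to 0.0103. In NB1643 cells the SLC7A6 ratio was 0.164 in untreated and treated cells, and in NB1691 cells 0.172 and 0.132. The SLC7A11 ratio went from 0.0143 to 0.00848 in NB1643 and from 0.0917 to 0.0671 in NB1691 cells. With palbociclib the SLC7A5 ratio was lower in CHLA15 (0.925 to 0.796), CHLA20 (0.964 to 0.699) and NB1643 cells (0.581 to 0.459). In NB1691 cells it was higher (0.409 to 0.554). These ratios compare RNA and not protein.

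**Figure D4:**
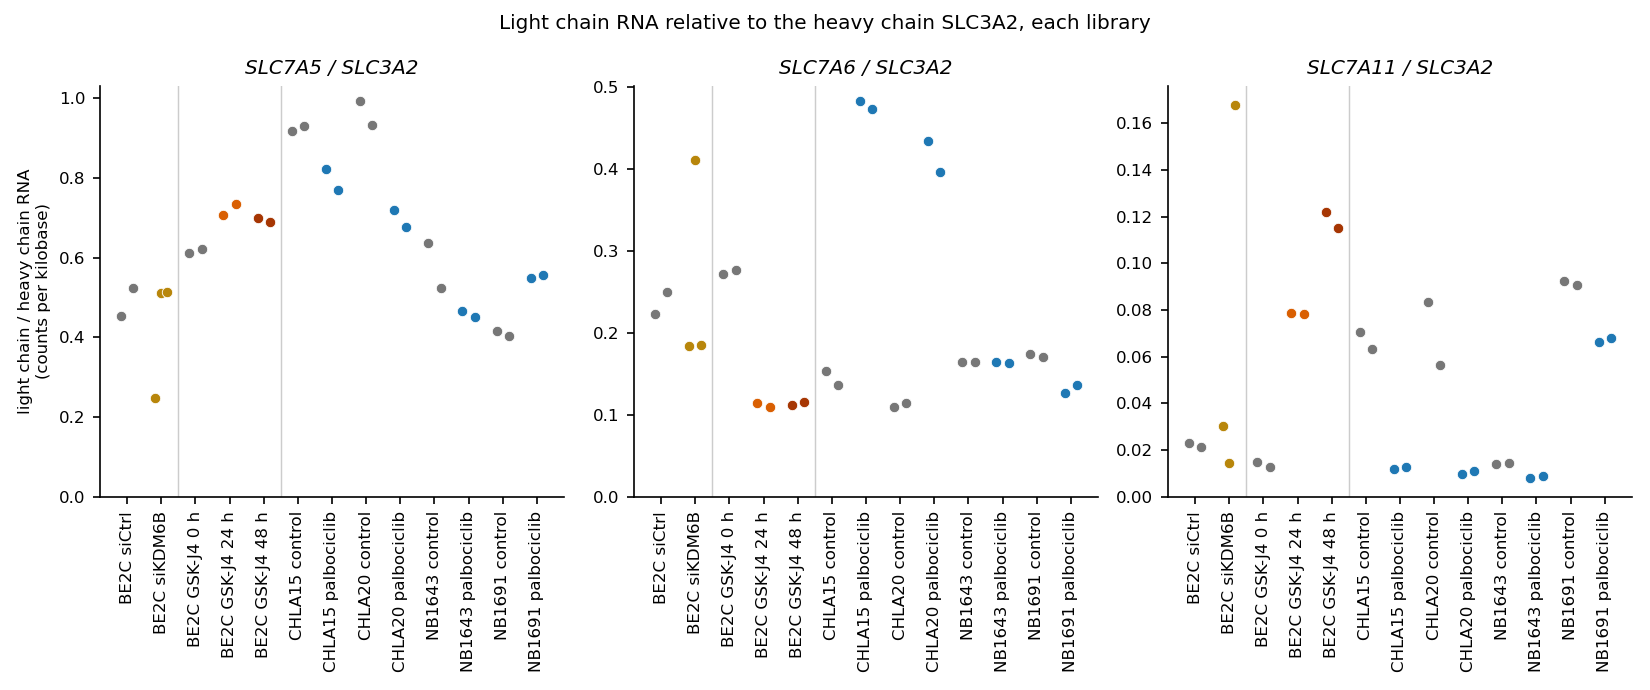
Ratio of each light chain to the heavy chain SLC3A2, in CPM per kilobase, for each library (colours as in the plot of CPM by library; axes start at 0). With GSK-J4 SLC7A6 drops from 0.272 to 0.277 at 0 h to 0.112 to 0.115 at 48 h and SLC7A11 climbs from 0.0127 to 0.0150 to 0.115 to 0.122 at 48 h, and the CHLA lines with palbociclib show the reverse.

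The 3 libraries of KDM6B siRNAs did not form 1 pattern. As a group against siCtrl, 0 of the 9 tested members passed the test in edgeR, DESeq2 or limma-voom, and 0 had an unadjusted p under 0.05 in edgeR. Over all 17472 genes the share called was 0% higher and 0% lower, with 1615 genes at an unadjusted p under 0.05 (DESeq2 called 164 genes). SLC7A11 had 16.6 and 15.6 CPM in the controls and 30.8, 8.98 and 205 CPM in the N1, N2 and N33 libraries, which is 1.91, 0.558 and 12.7 times the siCtrl mean. The siRNA libraries thus lay on both sides of the controls. Its log2 fold change was 2.34 ± 1.23 (adjusted p = 0.606) and 0.31 without N33. SLC3A2 had 141 and 142 CPM with siCtrl and 199, 123 and 239 CPM with N1, N2 and N33. SLC7A5 had 154 and 180 CPM against 119, 152 and 296 CPM, and its log2 fold change of 0.18 turned to -0.30 without N33. SLC1A4 had 9.03 and 9.62 CPM against 6.06, 3.81 and 14.8 CPM, with a log2 fold change of -0.18 that was -0.92 without N33 and 0.16 without N2. SLC7A1 (105 and 126 CPM against 146, 136 and 133 CPM) and SLC7A6 (105 and 118 CPM against 121, 168 and 146 CPM) were above both controls in all 3 libraries, with adjusted p of 0.721 and 0.65. For SLC1A5, SLC38A1 and SLC38A2 the siRNA libraries did not all lie on the same side of the controls, and SLC7A3, at 0.0710 to 0.322 CPM, was below the filter on low counts. In the N33 library MYCN was 0.289 times the siCtrl mean. There CHAC1, a glutathione-degrading ATF4 target, was 5.39 times, ASNS 2 times, ATF4 1.33 times and DDIT3 0.429 times that mean. In N1 and N2 CHAC1 was 0.906 and 0.647 times, ASNS 0.493 times in both, ATF4 0.871 and 0.584 times and DDIT3 0.776 and 0.828 times. The proliferation sum of the 3 libraries ranged from 666 to 1996 CPM against 2677 to 2728 CPM with siCtrl.

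Untreated NB1643 and NB1691 cells differed in most genes: 17868 of 22133 were called, 36.1% of genes higher and 44.6% lower in NB1643. All 10 members were called, which is near that share. SLC7A11 was 7.19-fold lower in NB1643 (6.33 and 6.58 against 46.2 and 46.6 CPM, adjusted p = 1.06e-13). SLC38A2 was 2.70-fold lower (214 and 243 against 614 and 622 CPM), SLC1A5 2.35-fold lower (134 and 123 against 301 and 303 CPM) and SLC1A4 1.47-fold lower. SLC38A1 was 2.19-fold higher in NB1643 (399 and 383 against 176 and 181 CPM, adjusted p = 2.55e-12), SLC7A1 1.31-fold and SLC7A5 1.27-fold higher. SLC7A3, with 45 and 32 against 4 and 7 counts, was 7.56-fold higher (adjusted p = 1.82e-05). The median of all genes was -0.13 here and 0.28 with library totals in place of TMM, and with library totals SLC7A6 (-0.23) and SLC3A2 (-0.17) turned to 0.19 and 0.25 and the adjusted p of SLC1A4 was 0.079. With upper quartile scaling the edgeR adjusted p was 0.446 for SLC7A6 and 0.723 for SLC3A2. Leaving out 1 library gave log2 fold changes of -0.247 to -0.132 for SLC7A6 and -0.197 to -0.0693 for SLC3A2. Given the markers above, the line and its differentiation state cannot be told apart.

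Across all 27 libraries, with the control mean of the same line and experiment subtracted from log2 CPM, the members other than SLC7A6 correlated positively. This is a description: the points share control libraries and drugs, and the CHLA15 and CHLA20 libraries had been used to choose the members. Each r is therefore followed by its value over the 19 libraries without those lines, a choice made after seeing the data. Pearson's r was 0.947 (0.809 without the CHLA lines) between SLC7A5 and SLC3A2, 0.937 (0.87) between SLC7A11 and SLC3A2, 0.922 (0.866) between SLC7A3 and SLC7A11 and 0.906 (0.947) between SLC7A3 and SLC1A4. SLC38A1 was less alike, with 0.276 (0.236) to SLC7A11 and 0.701 (0.7) to SLC38A2. SLC7A6 had negative values with all 9 others, from -0.793 with SLC7A3 to -0.46 with SLC38A1, and from -0.781 with SLC38A2 to -0.429 with SLC3A2 without the CHLA lines. Among 12284 genes, those most like SLC7A3 over the 27 libraries were ASNS (0.953, and 0.92 without), CEBPG (0.941 and 0.957), ULBP1 (0.936 and 0.924), CALCOCO2 (0.932 and 0.963) and ERAP1 (0.925 and 0.93). Those most like SLC7A11 were CHAC1 (0.973 and 0.94), ULBP1 (0.969 and 0.963), NFKB2 (0.957 and 0.955), SLC6A9 (0.953 and 0.89) and ADM2 (0.95 and 0.903). The order rested on the CHLA lines in part: without them ASNS ranked 18 for SLC7A3 and SLC6A9 ranked 130 for SLC7A11. ATF4 had 0.886 (0.821) with SLC7A3 and 0.934 (0.876) with SLC7A11. Its ranks were 40 and 12 over the 27 libraries, and 213 and 172 without the CHLA lines. NFE2L2 had 0.823 (0.752) with SLC7A3 and 0.822 (0.73) with SLC7A11, and MYCN -0.366 (-0.564) and -0.472 (-0.827).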

How the data were processed

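RNA-seq was analysed in 27 libraries of 5 neuroblastoma lines. Per the labels and the study's methods, the authors aligned paired reads to GRCh37 (the submitters' notes name CASAVA, STAR 2.5.3a and HTSeq) and deposited raw read counts per gene, not normalized. The methods name a mouse GENCODE release although the symbols are human, and an extraction label speaks of xenograft tissue although the other labels describe cultured cells. The BE2C files were summed in pairs, each pair taken as 1 library, which was inferred from the titles and the counts. File pairs differed by a chi-square per degree of freedom of 1.48 to 1.65, against 1.93 to 4.04 between different replicates. The titles of the KDM6B siRNA files carry 1 number after the siRNA, which does not say whether it counts files or replicates. Reads on no gene were left out. In each library they were 5.70 to 18.9% of the reads counted on a gene, on no gene or as ambiguous.

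The members and gene lists were chosen with earlier results of these data known. Each experiment was fitted across all genes with edgeR 4.0.16 (filterByExpr, TMM, quasi-likelihood test, two-sided, Benjamini-Hochberg, adjusted p under 0.05), in R 4.3.3. All groups of an experiment shared the estimate of spread. The SE is the log2 fold change divided by the root of the F statistic. CPM used TMM-scaled totals within an experiment, and 3 counts were taken as the floor. List genes were named by size of change among called genes with a mean of at least 1 CPM, up to 4 per list. Likeness was Pearson's r of log2 CPM after subtraction of the control mean. Alternatives were DESeq2 1.42.0, limma-voom (limma 3.58.1), other scalings, filters and call rules, each file as a sample, a replicate block, the compared groups alone, and each library left out. The fits were tested on simulated data. Promoter windows came from RefSeq (GRCh38.p14), and coordinates from GENCODE v44 lifted to GRCh37. Intervals and floors cover counting error and the spread between libraries only.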

Additional observations from a re-analysis of the deposited data

Results flagged for a closer look

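The change with palbociclib differed between NB1643 and NB1691 cells for 5 transporters, by edgeR's test of the difference between the lines (log2 fold change in NB1643 minus that in NB1691). It was -1.09 for SLC1A5, -0.967 for SLC7A5, -0.944 for SLC1A4, 0.375 for SLC38A2 and 0.347 for SLC7A1. SLC1A5, SLC1A4 and SLC7A5 were called lower in NB1643 and higher in NB1691. The rise of SLC1A4 in NB1691 and the fall of SLC7A5 in NB1643 were each lost in several alternative fits. SLC38A2 and SLC7A1 were called lower in NB1691 and not called in NB1643. With upper quartile scaling SLC7A1 was called higher in NB1643 (edgeR adjusted p = 0.0322). All 5 differences were called in each of the 8 fits that left out a library. The lines also differed in MYCN, FN1 and COL1A1 before treatment, and the part of these in the differences was not tested.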

How the results depend on the processing

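Over all alternatives, 1059 of 1138 member values counted as unchanged, 37 lost and 20 gained a call, and 22 changed sign. In the tested comparisons unchanged means the same direction and the same side of the threshold. The total also holds the CHLA15 and CHLA20 values, which have no test and no threshold. Those counted as unchanged when they kept their direction and moved by less than their SE. With an absolute log2 fold change above 0.5 also required, 3 members were called between 48 h and 24 h of GSK-J4, 4 in NB1643, 1 in NB1691, 3 for the difference of these lines and 6 between them untreated, against 9, 7, 7, 5 and 10. Leaving out 1 library gave 4 to 6 called members in NB1643. The signs that changed were mostly of values near 0. For the siRNAs, SLC38A1 and SLC38A2 were 0.0209 and 0.00815 with library totals, and SLC38A1 0.00294 with upper quartile scaling; leaving out 1 library gave -0.303 to 0.426 for SLC7A5, -0.917 to 0.159 for SLC1A4, -0.117 to 0.159 for SLC38A1 and -0.183 to 0.109 for SLC38A2. Between 48 h and 24 h SLC38A1 was -0.0143 with DESeq2, -0.0214 without a filter, -0.00132 with these groups alone and -0.0167 to 0.0051 with a library left out. In NB1643, leaving out a library gave -0.0141 to 0.217 for SLC7A1 and -0.0155 to 0.143 for SLC38A2. The difference of the lines for SLC38A1 was -0.00459 with at least 10 counts in every library and -0.075 to 0.0444 with a library left out. Between untreated lines SLC7A6 and SLC3A2 were 0.187 and 0.251 with library totals, and SLC3A2 0.0235 with upper quartile scaling. The cause was not tested.

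Over all genes, the siRNA comparison gave 0 calls, 164 with DESeq2, 84 without a filter and 2354 with each file as a sample. That last setting counts files inferred to be of 1 library as replicates. The stricter call left 3855 of 9802, 7487 of 12678 and 3111 of 9551 genes for GSK-J4 at 24 h, 48 h and between them, 4292 of 8841 in NB1643, 3033 of 7269 in NB1691 and 2566 of 4875 for their difference. Library totals moved the share of calls that were higher from 44.7% to 57.6% between untreated lines, from 52.9% to 35.9% in NB1691 and from 45.6% to 56.5% for the difference, and upper quartile scaling from 48.1% to 58.1% between 48 h and 24 h and the median of all genes at 48 h from 0.0546 to 0.164. Same-numbered libraries did not deviate together (r 0.00705 to 0.143, 2 pairs each). With the replicate number as a block 10, 10, 9, 7 and 7 members were called for GSK-J4 at 24 h, 48 h and between them, NB1643 and NB1691, and 6 for the difference of the lines, where SLC7A11 gained a call (adjusted p = 0.0309). In NB1643 the equal count hides a change of genes: SLC7A6 lost its call (0.0522) and SLC3A2 gained one (0.0475). With 2 libraries per group and 2 to 16 counts of SLC7A3 in its low groups, the size of its changes is the least certain.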
